A study of Mus musculus with 2 samples.

Results

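Tissue inhibitors of metalloproteinases (TIMPs) and the matrix-cutting enzymes they restrain were followed as 10 genes: the inhibitors Timp1, Timp2, Timp3 and Timp4, the matrix metalloproteinases Mmp2, Mmp3, Mmp14 and Mmp15, and the aggrecanase-type enzymes Adamts1 and Adamts5. They were matched by symbol to the gene table, which holds 32285 genes, and all 10 were found. The retinal pigment epithelium (RPE) is the pigmented cell layer between photoreceptors and choroid, and it was compared after a subretinal injection of doxorubicin (Dox), a DNA-damaging drug used to induce senescence, or of vehicle. The control library came from C57BL/6J mice of 3 months injected with buffer, and the Dox library from mice of the same strain and age that received 1 µl of Dox at 100 ng/µl. Tissue of 5 mice (10 eyes) was pooled for each library 7 days after injection, according to the methods of the study, so each condition is 1 library and mice cannot be told apart within it. The RPE, choroid and sclera were dissociated together with papain, and live cells of all these layers were sequenced from the 5′ end of the RNA.

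TIMPs are small secreted proteins that block the zinc site of metalloproteinases. Timp3 binds to the matrix and is a constituent of Bruch membrane, the sheet beneath the RPE, and changes in it are known from an inherited macular dystrophy. Mmp14 and Mmp15 sit in the cell membrane, Mmp14 activates the gelatinase Mmp2 with the help of Timp2, Mmp3 (stromelysin) cuts many matrix proteins, and Adamts1 and Adamts5 cut proteoglycans.

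The genes lie on 8 chromosomes of the mouse build mm10. Timp1 (chrX:20870166-20874735, plus strand), Timp3 (chr10:86300372-86349506, plus strand) and Timp4 (chr6:115241892-115252205, minus strand) each lie inside a synapsin gene, Syn1, Syn3 and Syn2, on the opposite strand. The exons of Timp1 fell within an intron of Syn1, while Timp3 and Timp4 overlapped exons of their hosts, and Timp4 also overlapped Gm17482 on the opposite strand. Timp2 (chr11:118301069-118355740, minus strand) overlaps Cep295nl on its own strand, and how reads in the overlap were counted was not checked. Mmp3 (chr9:7445822-7455975, plus strand) overlapped no other annotated gene, and neither did Mmp2 (chr8:92827291-92853420), Mmp14 (chr14:54431612-54445364), Mmp15 (chr8:95352268-95375080), Adamts1 (chr16:85793827-85803113) or Adamts5 (chr16:85856173-85901828). RefSeq promoter windows (GRCm38.p6) were found for 8 of the 10 genes, and Mmp2 and Adamts5 were not among them. The 250 bases before the start of Timp1 (chrX:20869916-20870165, plus strand) and of Mmp3 (chr9:7445572-7445821, plus strand) are shown because these genes were the members past the fold call between Dox and control RPE cells, in opposite directions. Capitals mark matches, on either strand, to AP-1 (TGANTCA), STAT (TTCNNNGAA) or a GC box (GGGCGG).
Timp1: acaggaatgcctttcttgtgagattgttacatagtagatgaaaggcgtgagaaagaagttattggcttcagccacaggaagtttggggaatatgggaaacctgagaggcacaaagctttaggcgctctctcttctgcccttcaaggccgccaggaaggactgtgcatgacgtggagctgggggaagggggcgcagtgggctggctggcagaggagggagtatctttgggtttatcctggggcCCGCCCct
Mmp3: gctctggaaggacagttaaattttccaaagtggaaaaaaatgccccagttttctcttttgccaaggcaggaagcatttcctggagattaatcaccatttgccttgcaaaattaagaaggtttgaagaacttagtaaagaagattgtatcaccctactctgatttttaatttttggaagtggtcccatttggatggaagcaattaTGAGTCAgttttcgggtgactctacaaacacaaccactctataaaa
Mmp3 held an AP-1 match that begins 46 bases before the start, a motif found in 6.75% of the 32851 windows searched. Timp1 held a GC box that begins 8 bases before the start, and no AP-1 match in these 250 bases. A GC box at any position was found in 32.7% of windows. None of the 8 windows held a STAT match, which 7.02% of all windows did. A match is a run of letters and says nothing of binding.

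After filtering, 20180 control and 15426 Dox cells were kept, with 115611226 and 99273166 unique molecular identifiers (UMIs, counts of single RNA molecules) and medians of 4495 and 4995 UMIs per cell. The libraries shared 427 barcodes among kept cells. RPE cells were those with at least 10 UMIs of Rpe65, the visual cycle isomerase that defines this cell type: 1526 control and 1630 Dox cells, or 7.56% and 10.6% of the kept cells although the samples are labelled as RPE cells, with median depths of 16013.5 and 18115.5 UMIs. Of these, 1294 control and 1381 Dox cells lay in the RPE-like cluster, and all 10 RPE markers together made up 99102 and 100145 CPM (the number of UMIs of a gene for each 1000000 UMIs). RPE cells were also divided at 1000 CPM of Serpina3n, a secreted serine protease inhibitor. This gave 1511 Serpina3n-low and 15 Serpina3n-high cells in the control library, against 1422 and 208 in the Dox library, so the high cells were 0.983% of control RPE cells (exact interval 0.551 to 1.62%) and 12.8% of Dox-RPE cells (11.2 to 14.5%). Within 500 CPM below the limit lay 20 control and 57 Dox cells. Levels are CPM of UMIs summed over the cells of a group, with an exact Poisson 95% interval that covers counting error only. A ratio was called when it was at least 1.5-fold, its interval left out 0 on the log2 scale and both groups held at least 50 UMIs together. With 1 library per condition no test between conditions was possible, and a call describes these libraries.

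Timp3 was by far the most counted inhibitor RNA of RPE cells. It stood at 3788 CPM (3764 to 3811, 99671 UMIs) in control and 3804 CPM (3782 to 3826, 118691 UMIs) in Dox-RPE cells, and had a UMI in 99.8% and 99.9% of the cells. Both libraries therefore gave nearly the same level, a log2 ratio of 0.01 (−0.01 to 0.02). Timp3 made up 93.9% of the TIMP UMIs of control RPE cells and 93.3% of those of Dox-RPE cells. NK or T-like cells, which serve here as a gauge of free RNA, held Timp3 at 1103 CPM in the control and 1078 CPM in the Dox library. After each cell was thinned to 1000 UMIs, Timp3 was seen in 95.2% of control and 94.3% of Dox-RPE cells, against 42.9% and 43.4% of NK or T-like cells, so Timp3 in RPE cells stood above this gauge. The NK or T-like cells were shallower before thinning, with medians of 3813.5 and 4005 UMIs.

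Timp2, which inhibits many MMPs and takes part in Mmp2 activation, stood at 232 CPM (226 to 237) in control and 243 CPM (237 to 248) in Dox-RPE cells, a log2 ratio of 0.07 (0.02 to 0.12). NK or T-like cells held 181 and 143 CPM of it. Timp4 was counted with 20 UMIs in control and 19 in Dox-RPE cells, and 15 of the 19 lay in 3 cells, which is too few to compare. Timp1, a soluble inhibitor made by many cells under stress, was the member of the inhibitor group that differed: 13.4 CPM (352 UMIs) in control against 29.6 CPM (923 UMIs) in Dox-RPE cells, 2.21-fold higher, with a log2 ratio of 1.14 (0.97 to 1.33). Leaving out every cell with markers of a second cell type turned the Timp1 ratio to −1.50. That kept 538 of the 1526 control and 59 of the 1630 Dox-RPE cells, with 2 of the 208 Serpina3n-high Dox cells among them. The filter removed 988 control against 1571 Dox-RPE cells, so it cut the libraries unequally. Cells were marked from 10% of a type's median marker level. The median melanocyte-like cell held 30 melanocyte marker UMIs in control against 6 in Dox. These markers summed to 2967 CPM over control RPE cells and 1925 CPM over Dox-RPE cells. The ratio of −1.50 thus compares differently selected cells, and its cause was not tested.

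Among the proteases, Mmp14 fell short of the call with 38.0 CPM in control against 26.6 CPM in Dox-RPE cells, which is a log2 ratio of −0.52 (−0.65 to −0.38). Adamts1 stood at 66.1 and 54.6 CPM (−0.28, −0.37 to −0.18), Mmp2 at 15.1 and 13.1 CPM (−0.20, −0.40 to 0.00) and Mmp15 at 6.95 and 7.31 CPM (0.07, −0.22 to 0.36). Adamts5 had 19 and 24 UMIs. Mmp3 passed the call, 7.87 CPM (207 UMIs) in control against 1.54 CPM (48 UMIs) in Dox-RPE cells, 5.11-fold lower in Dox. In all, 2 of the 8 members with enough UMIs were called, beside 5.82% of the 12774 genes tested in this comparison, and the members' median log2 ratio was −0.10 against −0.01 over all genes.

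**Figure D1:**
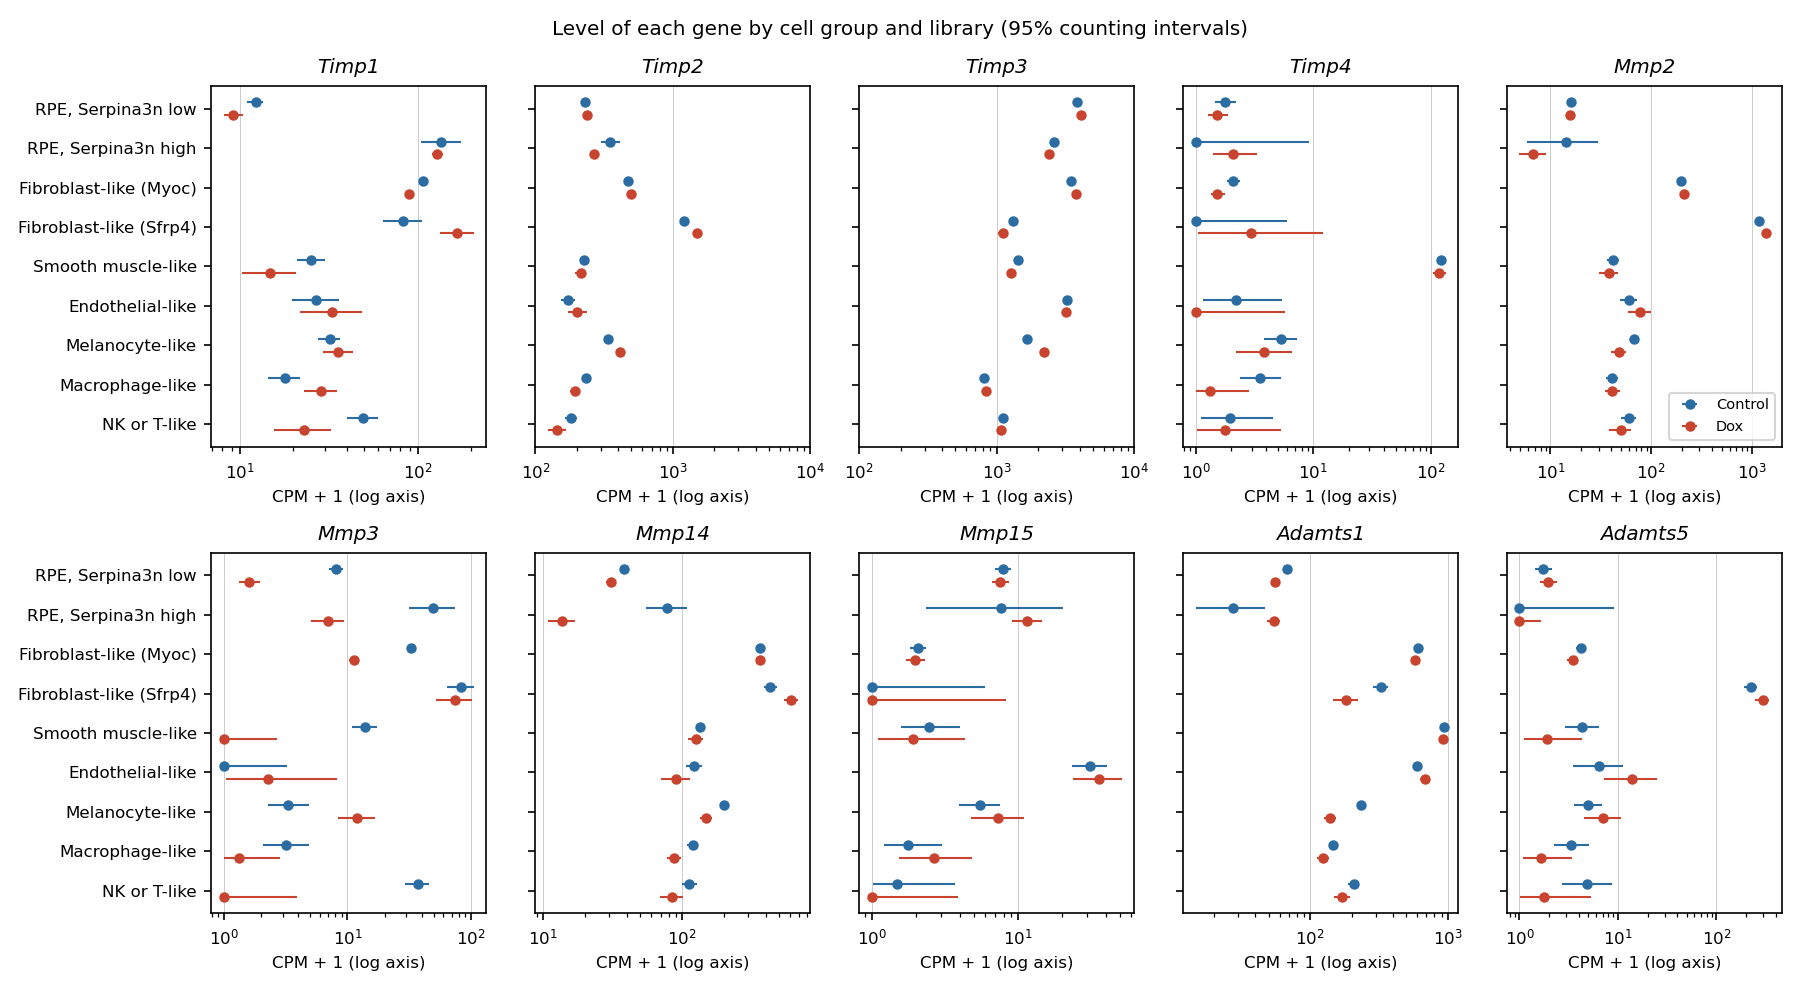
CPM + 1 of each of the 10 genes (log horizontal axis) in Serpina3n-low and Serpina3n-high RPE cells and in 7 other cell groups, with control in blue, Dox in red and bars for 95% Poisson intervals. Timp1 stands at 135 and 128 CPM in Serpina3n-high RPE cells and at 11.3 and 8.23 CPM in Serpina3n-low ones, Timp4 stands at 121 and 116 CPM in smooth muscle-like cells, and Mmp2 at 1179 and 1383 CPM in the Sfrp4-led fibroblast-like cells.

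The higher Timp1 of Dox-RPE cells was not seen within either group of RPE cells. In Serpina3n-low cells Timp1 stood at 11.3 CPM (10.00 to 12.6, 291 UMIs) in control and 8.23 CPM (7.16 to 9.42, 211 UMIs) in Dox, and the log2 ratio was −0.45 (−0.71 to −0.19). In Serpina3n-high cells it stood at 135 CPM (61 UMIs, interval up to 173 CPM) in the control and 128 CPM (712 UMIs, 119 to 138 CPM) in the Dox library, and the log2 ratio was −0.07 (−0.45 to 0.33). Neither Dox ratio passed the call. Without the richest cell of each library, Timp1 in Serpina3n-low cells was 10.8 CPM in control and 7.11 CPM in Dox (log2 −0.60) and was then called lower in Dox, and without the cells with fibroblast markers described below the ratio was 0.04. By contrast, the high cells exceeded the low cells 12-fold in control (log2 3.58, 3.16 to 3.98) and 15.5-fold in Dox (3.96, 3.73 to 4.19). The high cells, which were 15 in control and 208 in Dox, held 77.1% of the Timp1 UMIs of Dox-RPE cells (74.3 to 79.8%) with 17.8% of all their UMIs, and 17.3% of those of control RPE cells (13.5 to 21.7%) with 1.72% of all UMIs. When the control levels of low and high cells were weighted by the Dox shares of UMIs, Timp1 came to 33.3 CPM, beside the 29.6 CPM measured in Dox. The Dox levels at the control shares gave 10.3 CPM, beside the 13.4 CPM of the control. The split itself uses Serpina3n, which was 14.9-fold higher in Dox-RPE cells, and the control high level rests on 15 cells. Among high cells with Serpina3n from 1000 to 3000 CPM, Timp1 was 185 CPM in control against 53.4 CPM in Dox. With 3000 CPM or more it was 48.3 against 153 CPM. The reweighting therefore cannot tell why Timp1 was higher in Dox, which was not tested. In CPM, low RPE cells held less Timp1 than NK or T-like cells of the same library (48.1 in control, 21.9 in Dox), and high cells held more. Of the 99 control UMIs of NK or T-like cells, 46 lay in 3 cells. Those cells were also shallower, with medians of 3813.5 and 4005 UMIs against 15957 and 16608 in low RPE cells. Thinned to 1000 UMIs, Timp1 was seen in 1.19% of low control and 0.844% of low Dox cells. The shares in NK or T-like cells were 2.56% and 0.398%, so the gauge does not settle the source of Timp1 in low cells.

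Timp1 was spread over many Dox cells. It had a UMI in 135 of the 208 Serpina3n-high Dox cells (64.9%), and the richest cell held 31 of the 712 UMIs. Of the 15 high control cells, 11 had a UMI, but 3 of them held 44 of the 61 UMIs, and without the richest one the level was 93.5 CPM. Serpina3n-high cells were deeper, with a median of 28244 UMIs against 16608 in Serpina3n-low Dox cells. Thinned to 5000 UMIs per cell, Timp1 was seen in 38.5% of high Dox cells (31.6 to 45.7%, 195 cells, 13 shallower ones left out) and in 3.49% of low Dox cells (2.54 to 4.67%, 1233 cells, 189 left out). The control shares were 14.3% of 14 high cells (1.78 to 42.8%) and 5.05% of 1326 low cells (3.94 to 6.37%). Thinning draws UMIs at random, and these intervals leave out the spread between draws. The 14.3% is 2 cells, while a separate draw by Serpina3n band saw Timp1 in 3 of 9 and 1 of 5 high control cells.

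Across bands of Serpina3n, Timp1 in Dox-RPE cells stood at 4.29 CPM where Serpina3n was 0 (780 cells), 10.3 CPM above 0 to 300 CPM (539 cells), 31.0 CPM from 300 to 1000 CPM, 53.4 CPM from 1000 to 3000 CPM (64 cells) and 153 CPM at 3000 CPM or more (144 cells). In CPM each of these bands lay above the one before, with intervals that did not overlap for neighbours. Of the 110 UMIs of the band above 0 to 300 CPM, 29 lay in 1 cell. That cell had 16 Rpe65 UMIs and fibroblast markers at 26901 CPM, and lay in a fibroblast-like cluster. The cells of the 300 to 1000 CPM band were shallow, with a median of 5999 UMIs against 18710 in the band below. Thinned to 5000 UMIs, Timp1 was seen in 1.51% (0.726 to 2.76%) of cells at 0 and 3.90% (2.40 to 5.96%) above 0 to 300 CPM. It was seen in 5.26% (1.10 to 14.6%) of 57 cells of 300 to 1000 CPM, with 46 left out as shallower. The shares were 25.0% (14.0 to 38.9%) from 1000 to 3000 CPM and 42.7% (34.4 to 51.2%) at 3000 CPM or more. The share of cells thus separated no pair of neighbours, though the intervals of the first and last bands did not overlap. In control cells the first 4 bands stood at 7.70, 19.7, 70.4 and 185 CPM, in 1294, 181, 36 and 9 cells, and the last at 48.3 CPM in 6 cells with 8 UMIs. In the fourth control band 2 cells held 22 and 14 of the 53 UMIs, and within the last band Serpina3n itself differed, with 4858 CPM in control against 7836 CPM in Dox.

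**Figure D2:**
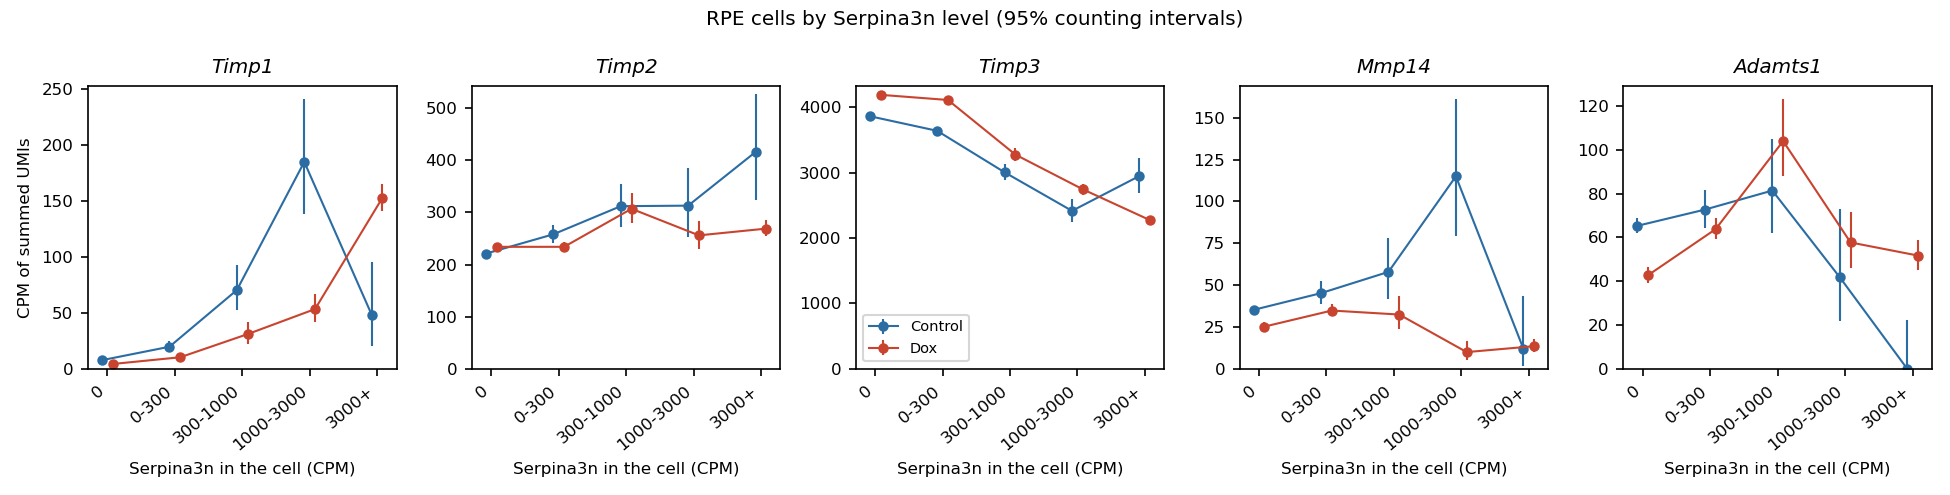
CPM of summed UMIs (vertical axes from 0) of Timp1, Timp2, Timp3, Mmp14 and Adamts1 in RPE cells grouped by their own Serpina3n CPM (horizontal axis), with control in blue, Dox in red and 95% Poisson bars. In Dox cells Timp1 climbs from 4.29 to 153 CPM while Timp3 goes from 4193 to 2273 CPM, and the last 2 control points rest on 9 and 6 cells.

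Timp3 took the opposite course. In Dox-RPE cells it stood at 4111 CPM (4086 to 4136) in Serpina3n-low and 2392 CPM (2352 to 2433) in Serpina3n-high cells, 1.72-fold lower in the high cells (log2 −0.78, −0.81 to −0.75). In control it stood at 3808 and 2613 CPM, a log2 ratio of −0.54 (−0.63 to −0.46) that fell short of the call. Every high cell still had Timp3 UMIs, 15 of 15 in control and 208 of 208 in Dox. By band, Timp3 in Dox cells stood at 4193, 4114, 3278, 2747 and 2273 CPM. Rpe65, which defines the cells, moved the same way, from 5499 to 1954 CPM in Dox and from 5008 to 2544 CPM in control. The share of Timp1 among TIMP UMIs was 0.189% in Serpina3n-low and 4.59% in Serpina3n-high Dox cells, so Timp3 remained the main inhibitor RNA there at 85.8%. All 4 TIMPs together came to 4357 CPM in low and 2787 CPM in high Dox cells. These levels are shares of UMIs, and high cells were deeper. Their medians were 28244 against 16608 UMIs in Dox and 33954 against 15957 in control. Timp3 had 13316 UMIs in 208 high and 105375 in 1422 low Dox cells, and 1183 in 15 high and 98488 in 1511 low control cells.

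Timp2 stood at 351 CPM in the 15 high control cells and 229 CPM in the low ones, 1.53-fold higher (log2 0.61, 0.38 to 0.84), and at 266 and 238 CPM in Dox (0.16, 0.08 to 0.24). Mmp15, a membrane-bound metalloproteinase, was low but was the protease called higher in the high Dox cells when all RPE cells were used, 10.6 CPM (59 UMIs) against 6.59 CPM (169 UMIs), a log2 ratio of 0.69 (0.23 to 1.12). Its 59 UMIs lay in 47 cells, with at most 3 in a cell. NK or T-like cells held 0.486 CPM of Mmp15 in control (1 UMI) and none in Dox, where the floor of 3 UMIs would be 2.35 CPM. Adamts1 stood at 53.2 CPM in high and 54.9 CPM in low Dox cells, a log2 ratio of −0.05 (−0.23 to 0.14). This ratio depended on the cells used. With cells thinned to 2000 UMIs it was −0.70 and called lower. Without cells with fibroblast markers it was 1.19 and called higher. By share of cells thinned to 5000 UMIs, Adamts1 was seen in 23.6% of high (17.8 to 30.2%) and 15.2% of low Dox cells (13.3 to 17.4%). In control Adamts1 stood at 26.5 CPM (12 UMIs in 5 cells) in high and 66.8 CPM in low cells.

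Mmp2 and Mmp14 were lower in the high Dox cells, Mmp2 at 5.75 against 14.7 CPM (log2 −1.36, −1.93 to −0.84) and Mmp14 at 12.6 against 29.6 CPM (−1.24, −1.61 to −0.88). RNA of fibroblasts moved with them: the 17 fibroblast markers together stood at 596 CPM in high and 1795 CPM in low Dox cells, and at 2264 and 2406 CPM in control. Cells with at least 10% of the fibroblast marker level of fibroblast-like cells were 367 of the 1526 control and 253 of the 1630 Dox-RPE cells. They held 337 of the 397 Mmp2 UMIs and 698 of the 1000 Mmp14 UMIs of control RPE cells, and 356 of 410 and 544 of 829 in Dox. Of the Adamts1 UMIs they held 1204 of 1740 in control and 988 of 1703 in Dox. Without them, Mmp2 stood at 1.92 CPM in high and 1.99 CPM in low Dox cells (log2 −0.05), and Mmp14 at 9.43 and 10.7 CPM (−0.18), so neither passed the call. In CPM, RPE cells as a whole held less Mmp2, Mmp14 and Adamts1 than NK or T-like cells, which were shallower. The latter stood at 58.8 and 48.6 CPM for Mmp2, 112 and 83.0 CPM for Mmp14, and 206 and 169.9 CPM for Adamts1.

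Leaving out the same cells widened the Timp1 contrast. Serpina3n-low cells then stood at 3.60 CPM (2.82 to 4.53) in control and 3.71 CPM (2.95 to 4.60) in Dox, and Serpina3n-high cells at 150.4 CPM (114 to 195, 12 cells) and 131 CPM (121 to 141, 192 cells). The log2 ratio of high over low cells was 5.39 in control and 5.14 in Dox, and that of Dox over control in all RPE cells was 2.14. The Timp3 ratio in Dox was −0.76 and that of Mmp15 0.64, and Adamts1, at 48.1 CPM in high and 21.0 CPM in low Dox cells, was then called higher in high cells (1.19). These cells were left out as a choice made after the data had been seen.

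**Figure D3:**
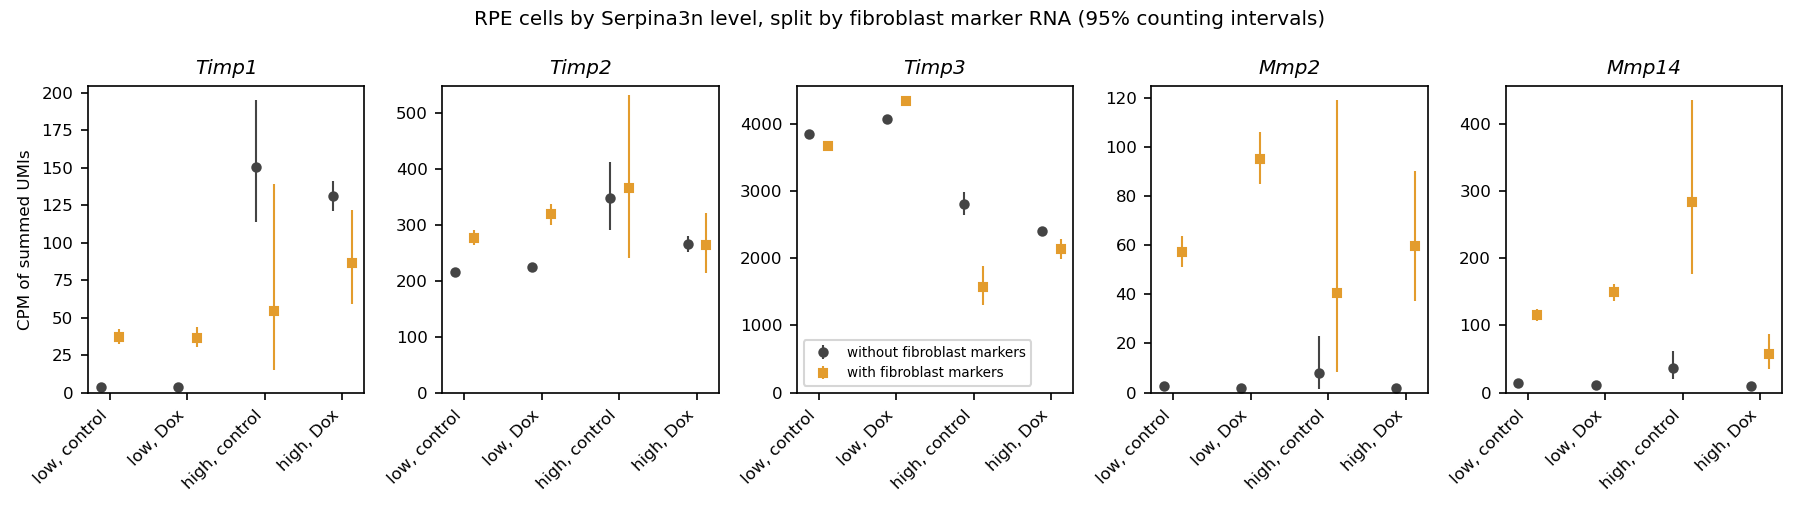
CPM (vertical axes from 0) of Timp1, Timp2, Timp3, Mmp2 and Mmp14 in Serpina3n-low and Serpina3n-high RPE cells of each library, for cells without fibroblast markers (grey circles) and with them (orange squares), with 95% Poisson bars. Without fibroblast markers Timp1 stands at 3.60 and 3.71 CPM in low and at 150.4 and 131 CPM in high cells, while Mmp2 stands at 7.92 CPM or less in each group.

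Mmp3 counts came from very few cells. Of the 207 Mmp3 UMIs of control RPE cells, 90 lay in 1 cell and 144 in 3 cells, and only 29 cells had any. In Dox, 31 of 48 lay in 1 cell and 42 in 3, with 8 cells in all. The 5.11-fold difference therefore rests on a handful of cells, and the Poisson interval, which treats UMIs as independent, is too narrow for it. The richest Mmp3 cell of the control was an RPE-like cell with 109 Rpe65 UMIs that lay under the fibroblast limit, while the richest Dox cell carried fibroblast markers at 14912 CPM. Without the richest cell of each library the levels were 4.45 and 0.545 CPM. In Serpina3n-high cells Mmp3 had 22 UMIs in control, 20 of them in 1 cell, and 33 in Dox, 31 of them in 1 cell, so no ratio over these groups describes more than a cell each.

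**Figure D4:**
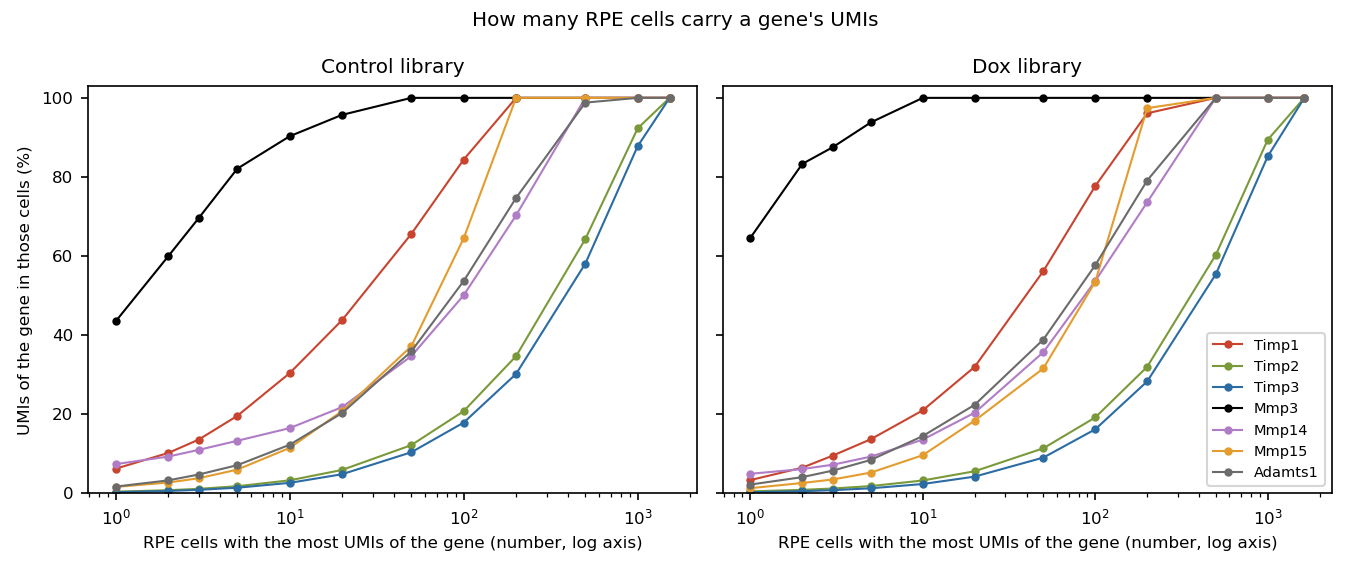
Percentage of a gene's UMIs in RPE cells (vertical axis) held by the cells with the most of them (horizontal log axis, number of cells), for 7 genes in the control and the Dox library. Mmp3 reaches 69.6% and 87.5% with 3 cells, Timp1 13.6% and 9.53%, and Timp3 stays at 0.893% in the control.

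The counts of called members in the other RPE comparisons were as follows. Between Dox and control Serpina3n-low cells, 1 of 8 tested members (Mmp3) was called, beside 4.15% of all genes tested. Between Dox and control Serpina3n-high cells, 3 of 7 were called, beside 9.82%: Adamts1 higher in Dox, and Mmp3 and Mmp14 lower. Those rest on the 15 control cells, where Adamts1 had 12 UMIs and Mmp14 35, of which 17 in 1 cell. The same cell held 20 of the 22 Mmp3 UMIs. It had 16 Rpe65 UMIs and fibroblast markers at 30152 CPM, and lay in the melanocyte-like cluster. Between high and low control cells, 5 of 8 were called (Timp1, Timp2, Mmp3 and Mmp14 higher, Adamts1 lower), beside 9.17%. Without the richest cell of each gene and group, Timp1 and Adamts1 were still called there and Timp3 was called lower, while Timp2, Mmp3 and Mmp14 were not called. Between high and low Dox cells, 5 of 7 were called (Timp1 and Mmp15 higher, Timp3, Mmp2 and Mmp14 lower), beside 21.1% of all genes tested, of which 496 were higher and 1966 lower in the high cells. There the median log2 ratio was −0.05 over the members and −0.18 over all genes.

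**Figure D5:**
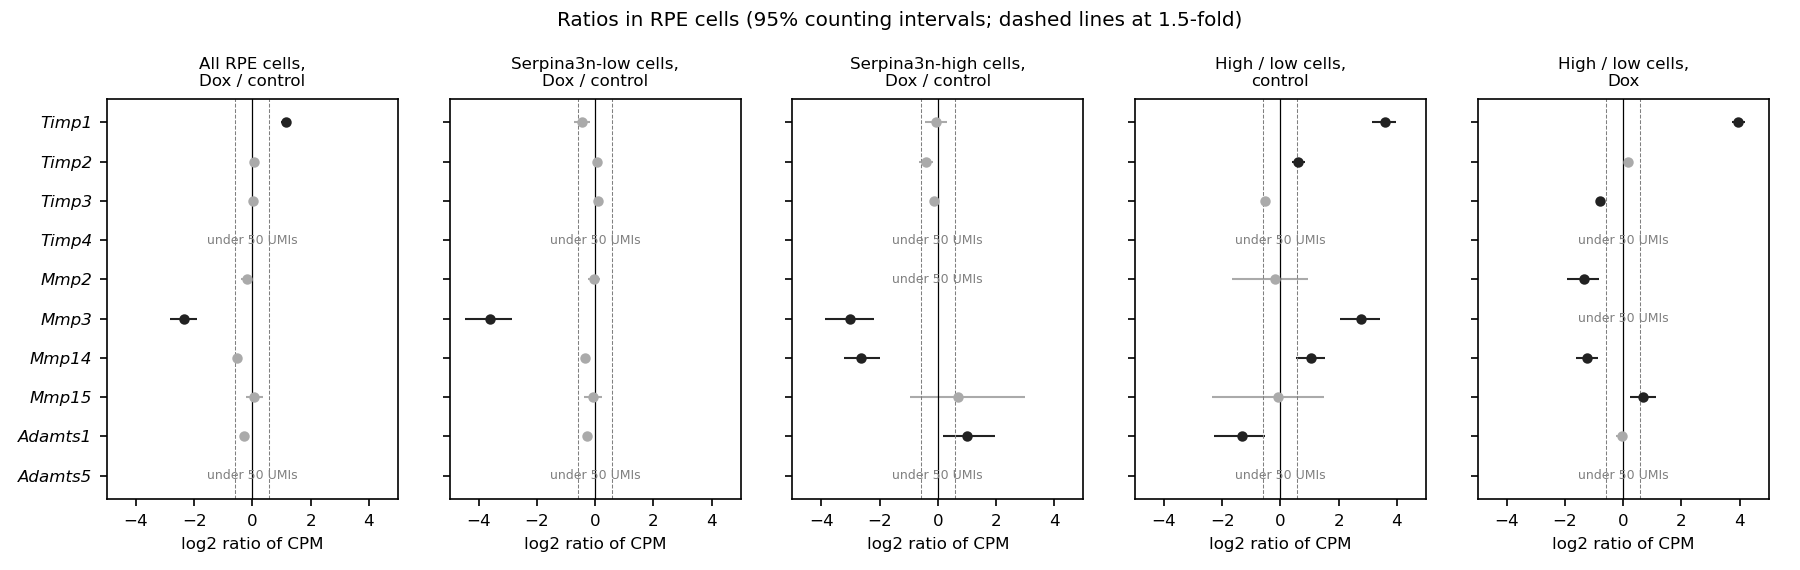
Log2 ratios of CPM (horizontal axes) of the 10 genes in 5 comparisons of RPE cells, with 95% intervals for counting error, black where the call was met, grey where not, and dashed lines at 1.5-fold. Timp1 stands at 3.58 and 3.96 for high over low cells and at −0.45 and −0.07 for Dox over control within low and within high cells.

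Other genes of the pathway were followed in lists. Of 19 further MMPs, 18 were in the table and 5 had enough UMIs in RPE cells, with none called between Dox and control, beside 5.82% of all genes. Within Dox cells, where 21.1% of all genes were called, Mmp19 was higher in Serpina3n-high cells (6.83 against 3.32 CPM, log2 1.04) and Mmp16 lower (0.719 against 2.11 CPM, −1.55). Of 22 other ADAMTS and ADAMTS-like (Adamtsl) genes, 8 were tested between Dox and control RPE cells. Beside the same 5.82%, 1 was called: the ADAMTS-like Adamtsl3, lower in Dox (2.02 against 3.04 CPM, −0.59). Between high and low Dox cells (21.1% of all genes called) 7 were tested: Adamts9 (−1.82), Adamts4 (−1.09) and Adamts10 (3.95 against 7.92 CPM) were lower in high cells and Adamtsl5 was higher (0.66). Of the 11 ADAM genes listed, 8 were tested between Dox and control and none was called. Adam22 (−0.91) and Adam23 (−0.96) were lower in high than in low Dox cells.

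Among 20 activators, receptors and other inhibitors, all with enough UMIs, 2 were higher and 3 lower in Dox-RPE cells, beside 5.82% of all genes called. A2m, alpha-2-macroglobulin, a broad protease trap, had 222 CPM in the control library against 743 CPM in Dox (log2 1.74, 1.70 to 1.78), and Pcolce, an enhancer of procollagen processing, at 653 and 1048 CPM (0.68, 0.66 to 0.71). Cd44, a hyaluronan receptor (−1.18), Plau (−0.74) and Plat (−0.60), the plasminogen activators, were lower. Summed macrophage markers had 428 CPM in control against 199 CPM in Dox-RPE cells, fibroblast markers had 2404 against 1581 CPM, and their part in these values was not tested. A2m was divided between the cells much as Timp1 was: high Dox cells held 70.4% of its UMIs, at 2931 CPM against 268 CPM in low cells (3.45), and high control cells stood at 1029 CPM against 208 CPM (2.31). Unlike Timp1, A2m was also called between Dox and control high cells (1.51, 1.38 to 1.65), as was Pcolce (0.69, 0.58 to 0.80). In that comparison 2 of 11 genes of the list tested were higher and 4 lower, beside 9.82% of all genes called. Between high and low control cells 6 of 19 were higher and 1 lower, beside 9.17%. In Dox 4 of 18 were higher and 4 lower, beside 21.1%. Htra1, a secreted serine protease, was higher in high than in low cells of both libraries (1.91 in control, 1.57 in Dox), and Efemp1 (1.81 and 0.84) likewise. Serpine2, an inhibitor of thrombin and plasminogen activators, was lower in both (−0.89 and −1.27).

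Of 26 matrix substrates, 24 were tested between Dox and control RPE cells and 6 were lower in Dox, among them Vcan (−1.36), Dcn (−0.87), Hspg2 (−0.73) and Bcan (−0.65), and none was higher, beside 568 of the 12774 genes tested that were lower. The fibroblast list, which holds Dcn, went from 2404 to 1581 CPM in the same comparison. Between high and low Dox cells 13 of 23 were lower and none higher, beside 1966 of 11662 genes lower, led by Fn1 (3 against 149 UMIs, log2 −3.43), Nid1 (−1.79), Dcn (−1.58) and Col1a1 (−1.46). Dcn, Col1a1, Col1a2 and Col3a1 are also on the fibroblast list, whose sum moved with both comparisons. Its part in the substrate counts was not tested. Between high and low control cells 1 of 23 substrates tested was higher and 1 lower. Beside them, 397 of 11582 genes were higher and 665 lower, and these values rest on 15 high cells.

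Outside the RPE the members had distinct cell groups. Cells were clustered without the 10 genes and the pathway lists, and clusters were named from markers. The large fibroblast-like cluster, led by Myoc, held 11151 control and 8381 Dox cells, with Timp3 at 3443 and 3774 CPM, Timp2 at 473 and 495 CPM, Mmp14 at 363 CPM in both, Adamts1 at 609.6 and 574 CPM, Mmp2 at 196 and 210.0 CPM and Timp1 at 106 and 88.0 CPM. Timp1 in Serpina3n-high RPE cells was thus at or above the level of these fibroblast-like cells. A small fibroblast-like cluster led by Sfrp4, with 110 and 66 cells, stood at 1179 and 1383 CPM for Mmp2 and 1212 and 1496 CPM for Timp2. The cluster stood at 223 and 295 CPM for Adamts5, which was among its leading genes though kept out of the clustering. It held 1.17 and 1.09 TIMP UMIs for each UMI of the 6 proteases, against 29.9 and 39.2 in RPE cells.

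Timp4 was concentrated in smooth muscle-like cells, at 121 CPM (584 UMIs, 151 of 904 cells) in control and 116 CPM (252 UMIs, 57 of 392 cells) in Dox, and stood under 5 CPM in all other groups. Adamts1 stood at 931 and 921 CPM in the same cells and at 601 and 685 CPM in endothelial-like cells. Mmp15 was at 30.2 and 34.8 CPM in endothelial-like cells, above its RPE level, and Timp3 at 3237 and 3212 CPM there was near the RPE level. A cluster of 1466 control and 1267 Dox cells led by Cxcl10 held fibroblast markers at 26979 and 26727 CPM, beside 31853 and 31716 CPM in the Myoc-led cluster, but stayed unnamed since its fibroblast markers averaged a log2 ratio of only 0.04 over the other cells. It held Mmp2 at 243 and 248 CPM and Timp1 at 96.5 and 88.3 CPM. A second unnamed cluster, led by Gfra3, held Timp3 at 2852 and 3802 CPM, and its median cell held 0 UMIs of the Schwann list that came nearest to it.

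Between Dox and control, 10 pairs of a member and another cell group were called over 7 named groups. No member was called in endothelial-like cells, beside 5.27% of the genes tested there. In the Myoc-led fibroblast-like cells, 2 of 10 members were called, beside 4.0% of genes: Mmp3 at 10.3 CPM in Dox against 31.7 CPM (log2 −1.63, −1.78 to −1.49), and Timp4 at 0.532 against 1.08 CPM (26 against 64 UMIs). Mmp3 there lay in 79 of 8381 Dox and 154 of 11151 control cells, and its 3 richest cells held 25.1% and 19.4% of the UMIs. NK or T-like cells held 1 Timp4 UMI in Dox (0.783 CPM) and 2 in control (0.972 CPM). Both lay under the floor of 3 UMIs, which is 2.35 and 1.46 CPM, too few to serve as a gauge. The part of free RNA in the Timp4 value was not tested. In the Sfrp4-led cells 2 of 8 were called, beside 10.4%: Timp1 at 166 against 81.9 CPM (1.02, 0.53 to 1.52), and Adamts1 at 180.1 against 325 CPM (−0.85, −1.22 to −0.50). Of the 84 Dox UMIs of Timp1, 25 lay in 1 cell and 42 in 3. Without the richest cell of each library Timp1 stood at 121 and 72.7 CPM. Timp1 had a UMI in 30.3% of these Dox and 25.5% of these control cells.

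Macrophage-like cells had 1 of 6 called, beside 5.80%: Timp1 at 27.6 against 16.9 CPM, of which 34 of the 83 Dox UMIs lay in 1 cell, and without the richest cell of each library it stood at 16.3 and 15.2 CPM. Melanocyte-like cells had 1 of 6 called, beside 13.7%: Adamts1 at 138 against 232 CPM (−0.75, −0.91 to −0.59). Their median depth was 772 UMIs in Dox and 1238.5 in control, RPE markers in them stood at 29606 and 9752 CPM, and fibroblast markers at 4949 and 8273 CPM. In Dox the RPE markers exceeded the melanocyte markers, which stood at 25682 CPM, against 37302 CPM in control. The part of these differences in the Adamts1 value was not tested. NK or T-like cells had 2 of 7 called, beside 6.98%: Timp1 at 21.9 against 48.1 CPM, and Mmp3, at least 15.3-fold lower in Dox, where it was listed at 0 of 253 cells, although 67 of the 74 control UMIs lay in 1 cell. For Timp1, 46 of the 99 control UMIs lay in 3 cells, and 6.32% of Dox and 6.94% of control cells had a UMI. Smooth muscle-like cells had 2 of 8 called, beside 5.04%: Timp1 at 13.8 against 24.3 CPM, and Mmp3, at least 9.31-fold lower, where 48 of the 62 control UMIs lay in 1 cell. In the control library Timp1 in macrophage-like and smooth muscle-like cells was below the 48.1 CPM of NK or T-like cells, and free RNA cannot be told apart there from the cells' own.

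Genes with patterns most like 3 of the members were sought over 22 groups, the 2 libraries by 11 cell groups, among 6443 genes with at least 50 CPM in 1 group or more. Groups of a library share its free RNA, so the correlations are descriptions. Mmp2 was followed most closely by Col3a1, Col1a1 and Col1a2, each with Pearson r of 0.98 on log2(CPM + 1), then Pamr1 and Creb3l1 at 0.97. The genes near Timp3 included Cdr2l (0.89) and Zbtb4, Sorbs3 and Pura (0.82 each). For Timp1 the nearest were Cxxc5 (0.80), Scd1 (0.79), Pmepa1 (0.77), Ctsl (0.76) and Efemp1 (0.75).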

How the data were processed

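UMI counts per gene and cell were deposited by the authors as filtered matrices, made with Cell Ranger 4.0.0 on mm10, 1 library per condition. The deposited gene and barcode lists name their rows and columns. Cells with at least 500 UMIs, 200 to 6000 genes, a ratio of log10 genes to log10 UMIs of at least 0.8 and a mitochondrial share under 0.2 were kept. Clusters were rebuilt with Seurat 5.3.0 and sctransform 0.4.2 (R 4.3.3; 3000 features, 40 components, resolution 0.1), with 62 members and listed pathway genes kept out of the features, and named from marker lists where the markers' mean log2 ratio over the other cells was at least 1. A cluster whose median cell held 0 UMIs of its list stayed unnamed, a rule added after the data had been seen. No doublet caller was run, and leaving out cells with markers of another type was tried instead. Levels, ratios and exact intervals (Poisson, conditional binomial, Clopper-Pearson) were computed in Python 3.11.15 with scipy 1.17.1, and cover counting error only. UMIs count molecules, so no gene length was divided out. Shares of thinned cells come from a random draw for each cell group, and their intervals leave out the spread between draws. Ratio code was tested on simulated data. Members and lists were chosen with earlier results of these data known. The 10 members were always named, and at most 4 called genes per list and comparison. Alternatives varied thresholds, gates, depth, cell exclusions and the call. For Timp1, Timp3 and Mmp2 the 5 genes with the highest Pearson r were sought, and 1 of them is not reported here.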

Additional observations from a re-analysis of the deposited data

Results flagged for a closer look

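Timp1 and Adamts1 went in opposite directions in different cell groups between Dox and control, and these differences between groups were not tested, since each condition is 1 library. The log2 ratio of Timp1 was 1.02 in the Sfrp4-led fibroblast-like cells and 0.71 in macrophage-like cells, against −1.13 in NK or T-like and −0.81 in smooth muscle-like cells. The macrophage-like value rests on 1 cell with 34 of the 83 Dox UMIs. In the Sfrp4-led cells 25 of the 84 Dox UMIs lay in 1 cell. In control, 3 cells held 46 of the 99 UMIs of NK or T-like cells and 27 of the 117 of smooth muscle-like cells. For Adamts1, the ratio was 1.0 in Serpina3n-high RPE cells, where the control had 12 UMIs. It was −0.85 in the Sfrp4-led fibroblast-like and −0.75 in melanocyte-like cells. The melanocyte-like cells had median depths of 772 UMIs in Dox and 1238.5 in control. In Dox they held 29606 CPM of RPE markers against 25682 CPM of melanocyte markers. A finer clustering put 904 Dox and 1720 control cells in a melanocyte-like cluster. It put 1249 Dox and 858 control cells in an unnamed cluster led by Hbb-bs. How much these differences add to the Adamts1 ratio was not tested.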

How the results depend on the processing

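No paired analysis was possible because each condition is 1 library. Of 462 values of members under alternatives, 314 stayed within the counting interval of the reported value, 139 moved outside it and 9 reversed. The counts of called members were 2 for Dox over control in all RPE cells, 1 in Serpina3n-low and 3 in Serpina3n-high cells, 5 for high over low cells in control and 5 in Dox, and 10 pairs in other groups. Thinned to 2000 UMIs per cell, which leaves fewer UMIs, these became 1, 0, 0 and 2 for the first 4, and 6 pairs. The 2 were Mmp14 and Timp3, so Timp1 was not called for high over low in control, though its ratio was 4.04, and in Dox Mmp15 lost its call and Adamts1 was called lower. Of the 6 pairs, 4 were not among the 10 (Mmp2 in endothelial-like, Adamts5 in Myoc-led, Mmp14 in Sfrp4-led and in NK or T-like cells). Without cells holding markers of a second type, which leaves 59 of 1630 Dox-RPE cells, all RPE cells gave 1, Serpina3n-high cells 0, high over low 2 in control and 0 in Dox, the Timp1 ratio in all RPE cells was −1.50 and the Timp3 ratio of high over low Dox cells 0.20. A lower fold limit gave 3 members in low cells and 20 pairs, and a 2-fold call 3 for high over low in Dox and 6 pairs. With at least 20 Rpe65 UMIs, low cells gave 4 and high over low in control 3, and Mmp3 was 0.51 for Dox over control in high cells and −0.67 for high over low in control. In the RPE-like cluster alone these were 3 and 3, with Mmp3 at 0.37 and −0.70. A Serpina3n limit of 500 CPM gave 3 for high over low in Dox and Adamts1 at −0.14 in high cells, and one of 2000 CPM gave 3 in control and Mmp14 at −1.02. Chosen after seeing the data, leaving out cells with fibroblast markers gave 3 for high over low in control and Mmp3 at −0.31, and leaving out the richest cell of each gene and group gave 3 there and 2 in low cells, Timp1 and Mmp3, both lower in Dox. Beyond the effect of fewer UMIs or cells, the cause was not tested. Levels by cell type were not recomputed under other clusterings. The 15 Serpina3n-high control cells (452790 UMIs) limit every value that rests on them.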
